A study of Mus musculus with 14 samples.

Results

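The transcripts of 8 genes of β-catenin-dependent Wnt signaling, Ctnnb1, Axin1, Axin2, Apc, Lef1, Tcf7, Tcf7l1 and Sp5, were followed in mouse embryonic stem cells (mESCs) that were wild type (WT) or carried METTL14 R255K. The genes were taken by name from 2 tables of counts per gene, in which they were 8 of 52459 genes, and an m6A peak was assigned to one of them when it overlapped any of its exons. This gave 15 of the 17693 peaks listed for WT cells and 12 of the 9437 peaks listed for R255K cells. All cells were E14Tg2a, a mESC line, grown on gelatin in serum with leukemia inhibitory factor. In R255K cells, CRISPR-Cas9 knock-in had changed 1 arginine of METTL14, the partner of the m6A methyltransferase METTL3, to lysine, and such lines were grown from single colonies, so a difference from WT cells and a difference between clones cannot be told apart. MeRIP-seq, which sequences RNA fragments pulled down (IP) with an antibody against m6A beside the input RNA, had 2 IP and 2 input libraries per genotype, all from untreated cells and summarized by the authors as 1 peak list per genotype. RNA-seq of polyA RNA after 0, 4 and 8 h of 5 µg/ml actinomycin D, which blocks transcription, had 1 library per genotype and time. There was thus no replicate error for any level, and no p-value could be given; intervals are 95% and cover counting error only.

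Wnt signaling works through the stability of β-catenin. Without a Wnt ligand, a complex built on the Axin scaffolds and Apc holds β-catenin for phosphorylation and destruction, and with a ligand bound to Frizzled and Lrp receptors the complex is held back, so that β-catenin enters the nucleus and binds the DNA-binding proteins of the TCF/LEF family. In mESCs, Tcf7l1 mostly represses genes of the pluripotency network and β-catenin relieves this repression, while Axin2, Sp5, Lef1 and Tcf7 are themselves known targets of the pathway. m6A on an mRNA is read by proteins that can shorten or prolong its life.

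The summed counts ranged from 13812160 to 18813640 over the 6 libraries. All 8 markers of mESCs that were examined reached 1 FPKM (counts scaled to exon length and to the summed counts of the library) at 0 h in both genotypes, with summed levels of 2657 FPKM in WT and 1988 FPKM in R255K cells. Mettl14 itself was counted 681, 376 and 232 times in the WT libraries of 0, 4 and 8 h and 299, 280 and 209 times in the R255K libraries; a count per gene cannot show the amino acid change. The 8 genes were read against the 11869 genes with a mean of at least 1 FPKM at 0 h over the genotypes, and a ratio past 1.5-fold in either direction was called higher or lower. All 8 passed this filter, but Lef1 passed it only through its level in R255K cells.

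m6A peaks lay on 7 of the 8 transcripts in WT cells, and only Tcf7l1 carried none in either list; of the 11869 genes, 57.4% had a WT peak on an exon and 43.6% an R255K peak. Of the 15 WT peaks, 9 were overlapped by an R255K peak and are called kept, and 6 were not and are called lost. Over all 13870 exonic WT peaks 52.1% were kept and 47.9% lost, so the count for these genes was near that background. The 6 lost peaks were 4 of the 6 on Apc, the peak of Ctnnb1 and the peak of Lef1, whereas the 3 peaks of Axin1, both of Axin2, and those of Tcf7 and Sp5 were kept. Among kept peaks, fold enrichment of IP over the local background was lower in R255K cells in 8 of 9, against 71% of 7231 kept exonic peaks. The ratio of fold enrichments had a median of 0.765 over the 9 peaks, between 0.417 and 1.14, beside a median of 0.792 over all kept exonic peaks.

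The bases around the peak summits are shown because the m6A methyltransferase prefers the letters GGAC, in which A is the methylated base. Each line gives the 21 bases of mm10 on the strand of the gene, centered on the A of the GGAC nearest to the summit of a WT peak, with GGAC in capitals. Kept and lost peaks of Apc and the lost peak of Lef1 that also held GGAC are not shown. The nearest GGAC lay between 6 and 89 bases from the summits shown. For Ctnnb1, the bases beside the summit of the lost peak lie within that peak, with the A at −81 nt from the summit.
Axin1, coding sequence of exon 2, chr17:26143197-26143217: ttcataaaGGACtgtgtcatg
Axin1, coding sequence of exon 6, chr17:26187877-26187897: ggtcatgaGGACacctggctg
Axin1, end of the coding sequence in exon 11, chr17:26195047-26195067: gaaaaggtGGACtgagcactg
Axin2, coding sequence of exon 2, chr11:108923919-108923939: gtaacgggGGACtggggagcc
Axin2, 3′ UTR in exon 11, chr11:108949536-108949556: ctagggagGGACtggcgcctg
Tcf7, 3′ UTR in exon 10, chr11:52253845-52253865, minus strand: gctccccaGGACtcaccctcg
Sp5, end of the coding sequence in exon 2, chr2:70477152-70477172: aatccgcgGGACctatgagcg
Ctnnb1, coding sequence in exon 15, chr9:120959443-120959463, beside the lost peak: cacgcccaGGACctcatggat
In the genomic window of 100 bp to each side of the summit, GGAC occurred in 13 of the 15 WT peaks and in 79.4% of 13005 exonic WT peaks. All 9 kept peaks and 4 of the 6 lost peaks held it, and the exceptions were 2 lost peaks of Apc. The Lef1 window is among the 13 although Gm43352 overlaps it on the other strand, whereas such windows were left out of the 13005. The only GGAC of the Lef1 window had its A at chr3:131110415, before the start of the gene at 131110471. It thus lay outside the annotated Lef1 transcript. The wider consensus DRACH was present in 15 of 15 windows, but it was also present in 99.3% of all exonic WT windows, so it separated nothing. A match shows the letters only, and which A carried the modification was not measured.

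Axin1 (chr17:26138688-26195811, plus strand), the scaffold of the destruction complex, and Axin2 (chr11:108920349-108950783, plus strand), its paralog induced by the pathway, carried 5 of the 9 kept peaks. On Axin2, the peak in the 3′ UTR, with its summit 228 nt past the last coding base, had a fold enrichment of 14.2 in WT and 10.8 in R255K cells. The peak in the coding sequence of its exon 2 fell further, from 12.4 to 5.16, a ratio of 0.417 and the lowest of the 9 kept peaks. The summits of this pair lay 231 bp apart, so the 2 values were taken at different sites. On Axin1 the fold enrichments went from 9.06 to 6.89 in exon 2, from 3.94 to 2.22 in exon 6 and from 4.61 to 3.73 at the stop codon. All 5 peaks of the 2 scaffolds thus had a lower fold enrichment in R255K cells.

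Apc (chr18:34220924-34322189, plus strand), which binds Axin and β-catenin in the destruction complex, held the most peaks. All 6 lay in its exon 16 of 10548 bp, and the peak with its summit at −221 nt from the last coding base was the strongest, with a fold enrichment of 12.9 in WT and 11.8 in R255K cells. The 4 peaks farther upstream in this exon, with fold enrichments of 3.37, 5.14, 3.03 and 3.10, had no counterpart in R255K cells. The remaining peak, at −1364 nt, had a fold enrichment of 3.20 in WT and 3.64 in R255K cells and was the only kept peak with a higher value there. Apc also had the lowest level at 0 h in R255K cells relative to WT cells among the 8 genes (below), and the part of that level in the peak calls was not tested.

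The other peaks were single. In Ctnnb1 (chr9:120929216-120960507, plus strand), which encodes β-catenin, a WT peak 20 nt past the last coding base with a fold enrichment of 2.99 was lost. Its −log10 q was 50.9, the highest among the 6 lost peaks, which otherwise ranged from 12.6 to 44.7. In Lef1 (chr3:131110471-131224356, plus strand), a TCF/LEF family member, a WT peak at the start of the 5′ UTR was lost; it had a fold enrichment of 11.02 and, as −log10 q, 16.4, and Gm43352 on the other strand overlaps that exon. Tcf7 (chr11:52252371-52283014, minus strand), another family member, kept its peak 120 nt past the last coding base, at 2.86 in WT and 2.30 in R255K cells. Sp5 (chr2:70474923-70477729, plus strand), a zinc finger transcription factor, kept a wide peak around its stop codon, but the fold enrichment went from 8.74 to 3.86, a ratio of 0.441. Across all exonic WT peaks, the kept share rose with the strength of the peak, from 17.1% at a −log10 q under 10 and 28.5% between 10 and 20 to 58.6% between 20 and 60 and 95.7% from 60 up. Of the 6 lost peaks, 4 had a −log10 q between 10 and 20. Only the Lef1 peak, 1 of the 15, had its summit in a 5′ UTR, as did 5.94% of all exonic WT peaks.

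**Figure D1:**
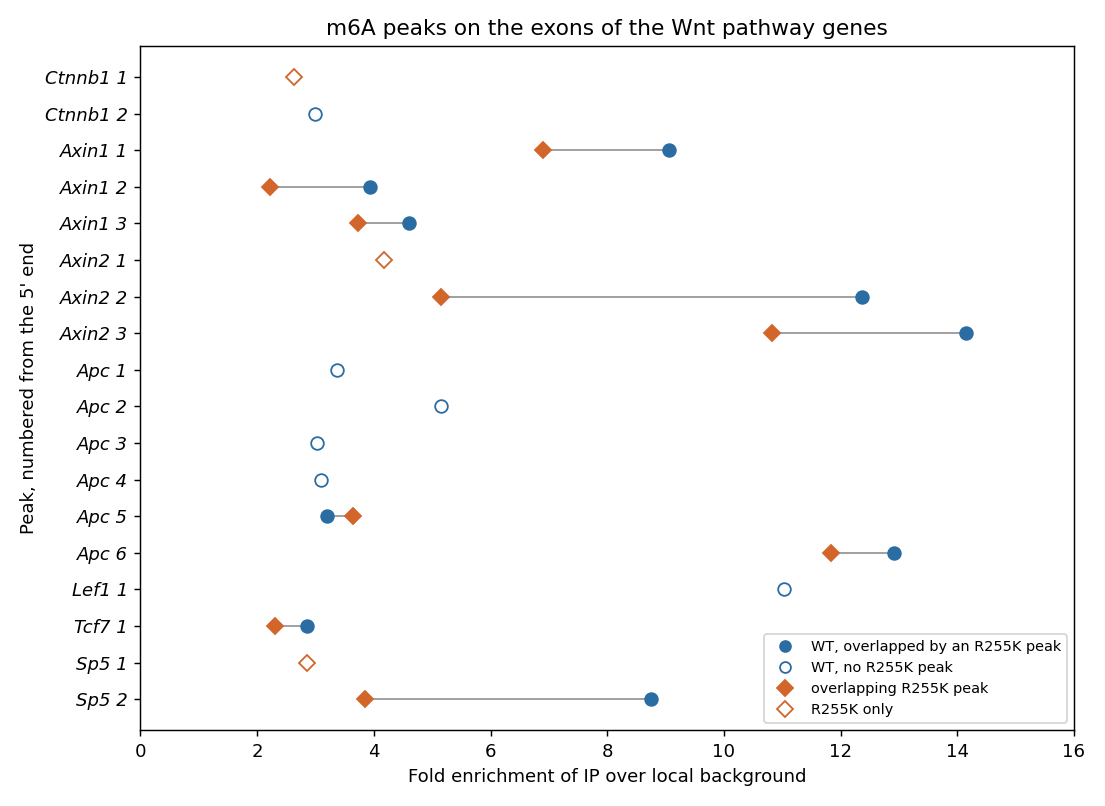
Fold enrichment of IP over local background (x axis) of every m6A peak on exons of the 8 genes, 1 peak per row in 5′ to 3′ order, with WT as blue circles and R255K as orange diamonds. Open symbols are peaks without a counterpart in the other list, and in 8 of the 9 joined pairs the R255K value lies to the left of the WT value.

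Of the 12 R255K peaks, 3 overlapped no WT peak, beside 13.1% of 8818 exonic R255K peaks, and 3 of the 8 genes held one, beside 8.06% of the tested genes. All 3 lay toward the 5′ end of their gene. In Ctnnb1 the summit was in the 5′ UTR, at −83 nt from the start codon, with a fold enrichment of 2.63. In Sp5 it was 29 nt past the start codon, with a fold enrichment of 2.86. In Axin2 it was 610 bp past the start of the gene, in a 5′ UTR that belongs to a transcript other than the principal one, with a fold enrichment of 4.18. Over all exonic R255K-only peaks 27.5% had the summit in a 5′ UTR, against 7.08% of the other exonic R255K peaks. Only the Axin2 window held GGAC within 100 bp of the summit. For the other 2 the nearest of the letters GAAC, AGAC and AAAC is shown in capitals, so that these windows can be set beside those of the WT peaks.
Ctnnb1, 5′ UTR in exon 1, chr9:120933545-120933565: ggaggcggAGACggagcacgg
Sp5, coding sequence of exon 1, chr2:70475281-70475301: gtcctccgGAACgactcactg
Axin2, 5′ end, chr11:108920869-108920889: tggaaacaGGACctgggttga

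**Figure D2:**
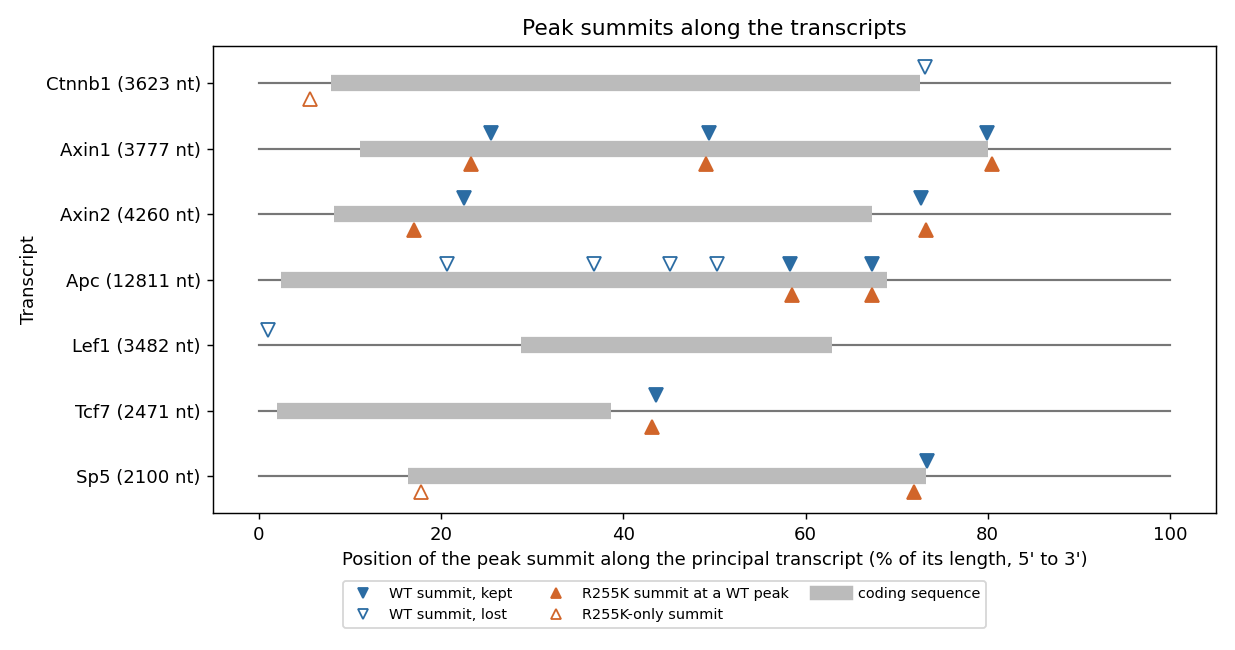
Position of each peak summit along the principal transcript (x axis, % of its length from 5′ to 3′), with WT summits above and R255K summits below the line and the coding sequence as a gray bar. The 5′ peak of Axin2 in R255K cells is not drawn because it lies outside the principal transcript; the 6 WT summits of Apc line up in the last exon and the 2 kept ones are those nearest to the stop codon.

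Before actinomycin D, the level per length ran in WT cells from 157 FPKM for Ctnnb1 through 23.6 for Axin1, 21.1 for Tcf7l1, 15.8 for Tcf7, 7.07 for Apc, 6.03 for Axin2 and 2.13 for Sp5 to 0.294 for Lef1. No counting intervals of neighbors in this order overlapped. In R255K cells the order was Ctnnb1 at 147 FPKM, Tcf7 at 43.0, Axin1 at 37.7, Tcf7l1 at 15.6, Sp5 at 8.16, Axin2 at 7.48, Apc at 2.82 and Lef1 at 1.85. There Sp5 and Axin2 could not be ordered, since their intervals of 7.21 to 9.20 and 6.91 to 8.08 FPKM overlapped. Lef1, Sp5, Tcf7 and Axin1 were higher in R255K cells, Apc was lower, and Ctnnb1, Axin2 and Tcf7l1 stayed within 1.5-fold. Of all 11869 genes, 20.6% were higher and 19.3% lower at 0 h, which became 23.2% and 12.8% once a trend on GC content was removed and 15.6% and 25.1% when libraries were scaled to ribosomal protein genes. In bulk RNA, fewer cells that express a gene and less RNA per cell cannot be told apart.

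Lef1 is a DNA-binding partner of β-catenin with a low level in both genotypes. It was counted 45, 7 and 7 times in the WT libraries of 0, 4 and 8 h and 254, 138 and 97 times in the R255K libraries. Every R255K library was above every WT library. The level in R255K cells was 6.29 times that in WT cells at 0 h (4.57 to 8.84), 15.9 times at 4 h (7.51 to 40.2) and 10.2 times at 8 h (4.75 to 26.0), where the wide intervals come from the 7 WT counts. Without a pseudocount these were the highest measured ratios of the 8 genes. Their intervals overlapped that of Sp5 at each time, and those of Apc, Axin1 and Axin2 at 8 h. With 1 added to each FPKM the ratios of Lef1 came to 2.2, 1.75 and 1.5, under those of Tcf7 at each time.

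Sp5 was counted 78, 9 and 2 times in the WT libraries and 268, 47 and 26 times in the R255K libraries. Its ratio was 3.83 at 0 h (2.96 to 4.99), 4.21 at 4 h (2.04 to 9.76) and 9.54 at 8 h (2.39 to 83.0), the last against 2 counts, which is under the floor of 3 counts; with the WT count set to the floor the ratio was 6.36. With 1 added to each FPKM the ratios were 2.93, 1.71 and 1.55. The gene with the highest GC content of the 8, 62.0% of its exon bases and the 98th percentile of all tested genes, is Sp5. At 0 h the ratio of R255K to WT depended on GC content, with a median log2 ratio of −0.52 in the fifth of genes with the lowest and 0.33 in the fifth with the highest GC content. After removal of that trend Sp5 was 3.22 times higher at 0 h, and the part of GC content in the rest was not tested.

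Tcf7, which also binds DNA with β-catenin, was counted 721, 593 and 367 times in the WT libraries and 1766, 1710 and 1428 times in the R255K libraries. The ratio was 2.73 at 0 h (2.5 to 2.98), 2.32 at 4 h (2.11 to 2.55) and 2.86 at 8 h (2.55 to 3.21), so that the difference was about as large before as after the block of transcription, except that scaling to Gapdh turned the 4 h ratio to 0.887. Tcf7 and Axin2 lie on chromosome 11, where 49.1% of 984 genes were higher in R255K cells at 0 h, 56.2% at 4 h and 64% at 8 h. Relative to the median gene of that chromosome, Tcf7 was 1.83 times higher at 0 h and 1.42 and 1.496 times at 4 and 8 h, both under the 1.5-fold limit, and the part of the chromosome in the result was not tested.

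The scaffolds differed at 0 h. Axin1 was counted 1577, 238 and 77 times in the WT libraries and 2258, 916 and 515 times in the R255K libraries, a ratio of 1.60 at 0 h (1.5 to 1.70) that came to 1.42, under the limit, when the GC trend was removed. Axin2 was counted 579, 28 and 11 times in the WT libraries and 644, 122 and 75 times in the R255K libraries, a ratio of 1.24 at 0 h (1.11 to 1.39). After 4 and 8 h both were higher in R255K cells, Axin1 by 3.10 (2.69 to 3.59) and 4.91 times (3.86 to 6.32), and Axin2 by 3.51 (2.31 to 5.50) and 5.01 times (2.64 to 10.5). With 1 added to each FPKM these were 2.69 and 3.32 for Axin1 and 1.64 and 1.51 for Axin2, whose level was then low. Relative to the median of chromosome 11, Axin2 had ratios of 0.831, 2.14 and 2.62 at 0, 4 and 8 h.

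Apc went the other way at 0 h. It was counted 1942, 557 and 85 times in the WT libraries and 695, 1314 and 814 times in the R255K libraries, so that the R255K library was the lower one at 0 h and the higher one at 4 and 8 h. The ratio of R255K to WT was 0.399 at 0 h (0.365 to 0.435), 1.90 at 4 h (1.72 to 2.10) and 7.03 at 8 h (5.62 to 8.90), and scaling to Gapdh, whose own counts ranged from 242 to 2357, turned the first to 1.08 and the second to 0.725. With 1 added to each FPKM the ratios were 0.473, 1.63 and 2.69. Among all tested genes, 6.9% were lower at 0 h and higher at 8 h. Apc has a GC content of 43.2%, at the 16th percentile of the tested genes, and without the GC trend its ratio at 0 h was 0.554. The part of GC content in the remaining difference was not tested.

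Ctnnb1 and Tcf7l1 stayed within 1.5-fold at 0 and 8 h. Ctnnb1 was counted 14238, 17716 and 20064 times in the WT libraries and 11898, 18997 and 20668 times in the R255K libraries, with ratios of 0.931, 0.864 and 0.756 at 0, 4 and 8 h. Tcf7l1 (chr6:72626378-72789254, minus strand), the TCF that mostly represses in mESCs, was counted 1441, 802 and 358 times in the WT libraries and 955, 571 and 384 times in the R255K libraries. Its ratios were 0.738 (0.680 to 0.802), 0.574 (0.514 to 0.639) and 0.787 (0.680 to 0.912), past the limit at 4 h; without the GC trend the ratio at 0 h was 0.647, also past it. Exons of Ulk4 on the other strand overlap those of Ctnnb1, and Ulk4 had between 31 and 68 counts per library.

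**Figure D3:**
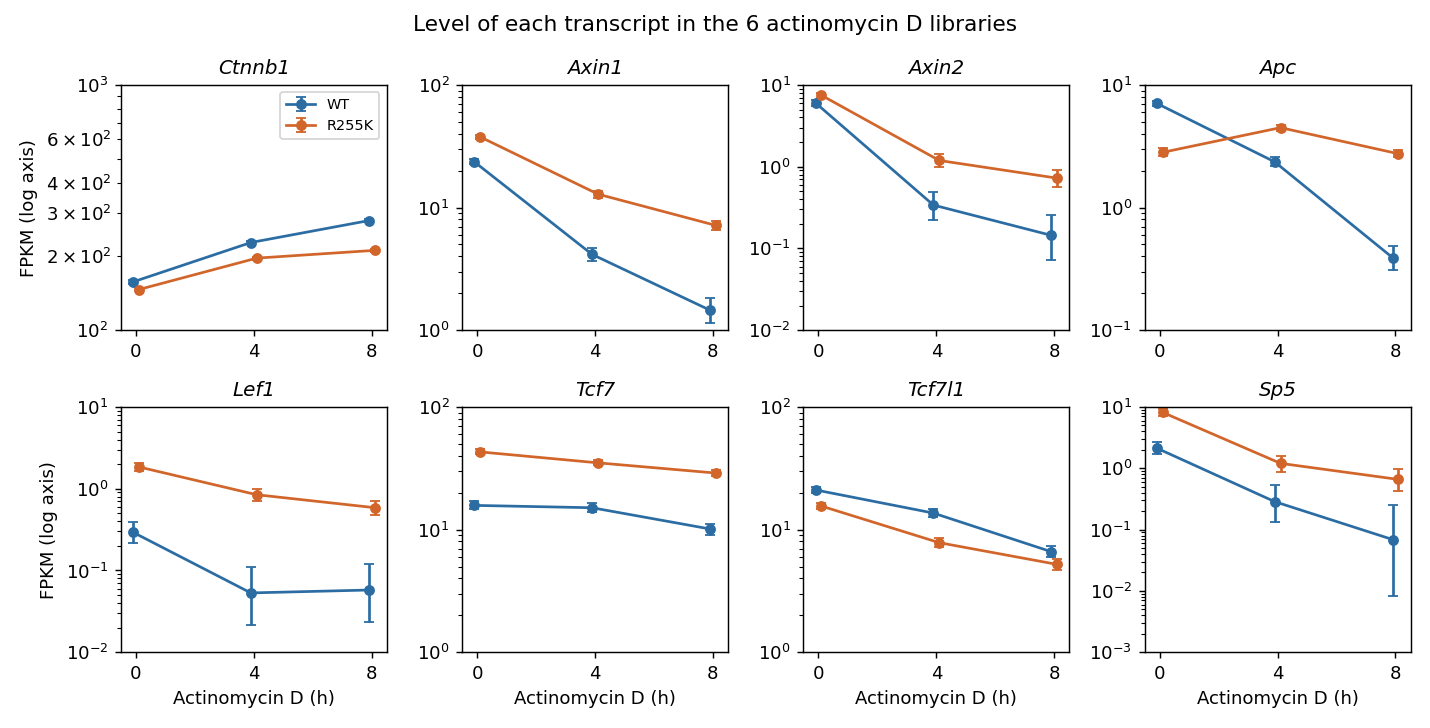
Level of each of the 8 transcripts in FPKM (log y axes that differ between panels) against hours of actinomycin D, for WT (blue) and R255K (orange). Each point is 1 library and bars are 95% Poisson intervals of its count; Apc is the one panel in which the lines cross.

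Set side by side over the time course, 4 of the 8 genes were higher and 1 lower in R255K cells at 0 h, 6 were higher and 1 lower at 4 h, and 6 were higher and 0 lower at 8 h. The same comparison over all tested genes gave 33.9% higher and 9.58% lower at 4 h, and 46.7% higher and 10.2% lower at 8 h. The median log2 ratio of the 8 genes was 0.49, 1.42 and 2.31 at 0, 4 and 8 h, beside 0.06, 0.22 and 0.49 over all tested genes. The split over all genes depended on the scaling: with TMM factors, which scale libraries on the genes that differ least, 26.4% were higher and 17.2% lower at 4 h, and 34.0% and 26.4% at 8 h. With these factors the 6 genes stayed higher at 8 h, with ratios from 2.12 for Tcf7 to 7.54 for Lef1, and Ctnnb1 and Tcf7l1 passed the limit for lower with 0.560 and 0.583. Tcf7, Axin1 and Sp5 were higher at all 3 times, which held for 14.7% of the tested genes. Lef1 was as well, but it passed the filter only through its level in R255K cells. The counts and medians of the 8 genes given here include it.

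**Figure D4:**
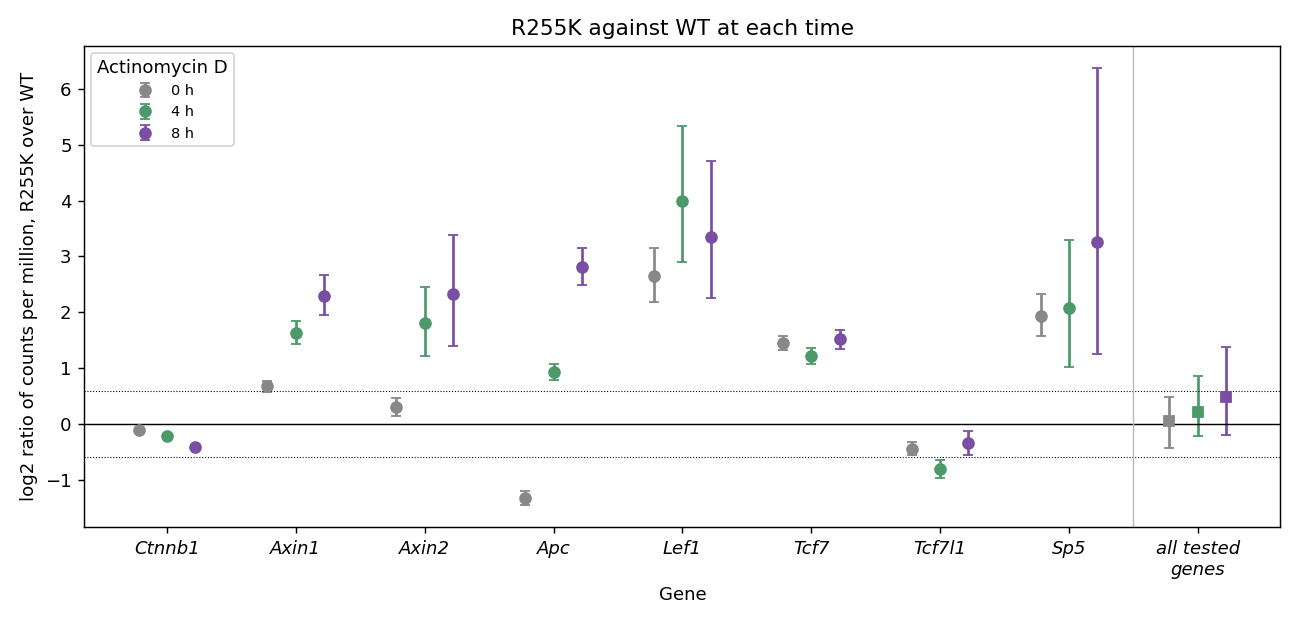
Log2 ratio of CPM, counts scaled to library size, in R255K over WT cells (y axis) for each gene at 0 h (gray), 4 h (green) and 8 h (purple), with 95% counting intervals, and dotted lines at 1.5-fold. Squares at the right give the median of the 11869 tested genes, with bars for their quartiles; the values of Lef1, Sp5, Tcf7 and Axin1 are above the upper dotted line at each time and Apc moves from −1.33 to 2.81.

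Some markers of other cell types moved along with these differences. The 5 markers of primitive streak and mesendoderm, cells in which Wnt signaling is high, summed to 1.70 FPKM in WT and 5.24 FPKM in R255K cells at 0 h, and 0 and 3 of them reached 1 FPKM. T stood at 0.273 and 1.24 FPKM, Eomes at 0.552 and 1.38 FPKM and Fgf8 at 0.298 and 1.42 FPKM. Mixl1 stood at 0.400 and 0.892 FPKM and Gsc at 0.181 and 0.303 FPKM. Their counts at 0 h ran from 4 for Gsc to 40 for Eomes in WT and from 6 to 90 in R255K cells. The 6 fibroblast markers summed to between 2.27 and 2.39 FPKM in WT and between 6.33 and 7.28 FPKM in R255K cells. Within that list at 0 h, Thy1 stood at 1.55 in WT and 4.01 FPKM in R255K cells, Col1a1 at 0.0787 and 1.46 FPKM and Col1a2 at 0.0139 and 0.391 FPKM, while Pdgfra stood at 0.607 and 0.376 FPKM, and Dcn and Col3a1 were at or under 0.103 FPKM in every library. The 4 endoderm markers summed to 5.37 and 5.16 FPKM at 0 h, but Foxa2 stood at 0.291 and 1.67 FPKM and Sox17 at 0.325 and 0.630 FPKM, against 3.35 and 1.74 FPKM for Gata4 and 1.40 and 1.12 FPKM for Gata6. The 3 neural markers summed to 16.5 and 9.27 FPKM, with Sox1 at 13.4 and 1.76 FPKM, Nes at 1.84 and 6.39 FPKM and Pax6 at 1.2 and 1.13 FPKM. T is itself a known target of the pathway. The part of such cells in the levels of Lef1, Sp5 and the others was not tested.

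During actinomycin D, 4 of the transcripts, those of Axin2, Sp5, Axin1 and Apc, dropped in WT cells to under 10% of their 0 h level within 8 h, counted relative to the rest of the library. Axin2 had the lowest remaining level in WT cells, although its intervals overlapped those of Sp5 at 4 and 8 h. It remained at 5.63% at 4 h (3.70 to 8.22) and 2.40% at 8 h (1.19 to 4.32) in WT cells, and at 15.9% (13.0 to 19.4) and 9.68% (7.52 to 12.3) in R255K cells. Axin1 remained at 17.6% and 6.16% in WT and at 34.1% and 19.0% in R255K cells. Both scaffolds thus kept more of their transcript in R255K cells, by 2.83 (1.85 to 4.34) and 4.04 times (2.12 to 7.68) for Axin2 and by 1.94 (1.66 to 2.27) and 3.08 times (2.40 to 3.94) for Axin1. By remaining level at 8 h, Axin2 lay at percentile 0.885 of the tested genes in WT and 1.76 in R255K cells, and Sp5 at 4.31 and 1.29.

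Apc showed the widest gap. It remained at 33.4% at 4 h (30.3 to 36.7) and 5.52% at 8 h (4.39 to 6.86) in WT cells, while in R255K cells it stood at 159% (145 to 175) and 97.4% (87.9 to 108). Of the tested genes, 14.4% were likewise lower at 4 h than at 0 h in WT cells and higher in R255K cells, by any amount. The R255K level of Apc at 4 h was above that at 0 h, so these values depend on the 0 h library of R255K cells, which also holds the low level described above. Between 4 and 8 h, which does not use the 0 h libraries, Apc went to 0.166 of its 4 h level in WT cells (0.130 to 0.208) and to 0.612 in R255K cells (0.560 to 0.669).

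The TCF/LEF family members behaved differently from each other. Tcf7 remained at 95.7% and 64.2% in WT and 81.4% and 67.2% in R255K cells after 4 and 8 h. By remaining level at 8 h it lay at percentile 49.4 of the tested genes in WT and 32.3 in R255K cells. Tcf7l1 remained at 64.7% and 31.3% in WT and 50.3% and 33.4% in R255K cells, at percentiles 32.4 and 12.7 at 8 h. Neither differed past 1.5-fold between the genotypes. Lef1 remained at 18.1% and 19.6% in WT and 45.7% and 31.8% in R255K cells, 2.53 times more at 4 h (1.11 to 5.75) and 1.62 times at 8 h (0.705 to 3.71), so that at 8 h counting error alone covers a ratio of 1. Sp5 went to 13.4% and then 3.24% in WT, and to 14.7% and then 8.07% in R255K cells. Its ratios of 1.10 (0.516 to 2.34) and, with the WT count at the floor, 1.66 (0.490 to 5.64) were likewise not separable from 1 at this depth.

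Ctnnb1 was the one transcript that did not decline in either genotype. Measured as a share of the library, its level stood at 1.45 and 1.78 times the 0 h level in WT and 1.34 and 1.44 times in R255K cells at 4 and 8 h. In WT cells 42.9% of the tested genes were above their 0 h level at 4 h and 36.5% at 8 h, and in R255K cells 45.1% and 43.6%.

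**Figure D5:**
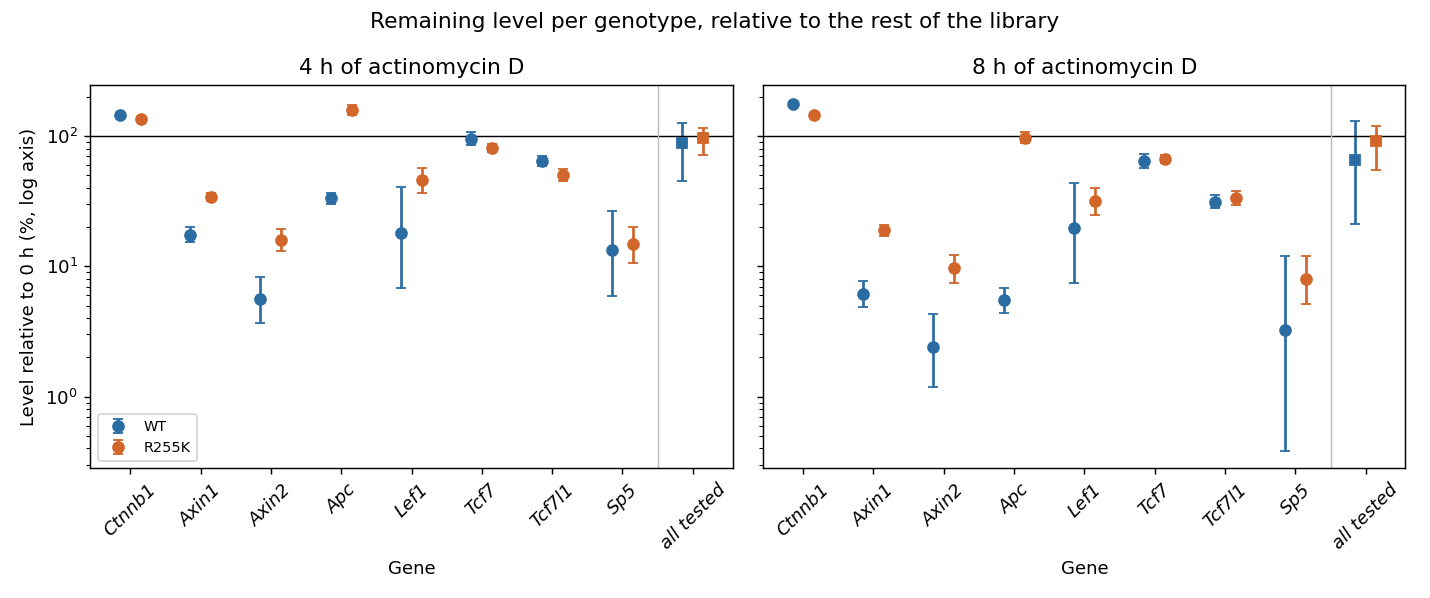
Level remaining after 4 h (left) and 8 h (right) of actinomycin D as % of the 0 h level of the same genotype (log y axis), relative to the rest of the library, with 95% counting intervals, for WT (blue) and R255K (orange). Squares give the median and quartiles of the 11869 tested genes; the 8 h values of Apc lie at 5.52% and 97.4%.

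In all, the remaining level was higher in R255K cells for 4 of the 8 genes at 4 h and for 5 at 8 h, and lower for 0. The 5 at 8 h include Lef1 and Sp5, whose intervals there include 1. Lef1, counted at both times, passed the filter only through its level in R255K cells. Scaled to Gapdh, which moved the median log2 level ratio of all genes at 4 h to −1.17, the remaining level was lower for 7 at 4 h, and Apc stood at 0.674. Over all tested genes it was higher for 31.7% and lower for 6.45% at 4 h, and higher for 44.2% and lower for 9.39% at 8 h. With TMM factors these shares were 25.5% and 14.3% at 4 h and 33.1% and 25.5% at 8 h, where 3 of the 8 genes were then higher, Axin1, Axin2 and Apc, and Ctnnb1 was lower. Expressed as half-lives, from the mean of the decay rates to 4 and to 8 h, the half-life of Axin2 was 1.17 h in WT cells and 1.58 times as long (1.39 to 1.80), 1.85 h, in R255K cells. That of Axin1 went from 1.77 h to 2.91 h, 1.64 times as long (1.52 to 1.78), and that of Lef1 from 2.2 h to 4.09 h, 1.86 times as long (1.22 to 2.83). The Lef1 value rests on 7 WT counts at 4 h and 7 at 8 h, and from the 8 h library alone it was 1.42. The half-life of Sp5, 1.57 h against 1.75 h, differed by a factor of 1.11 (0.830 to 1.48), with the WT count of 8 h set to the floor. The repressor Tcf7l1 had a shorter one, 5.46 h against 4.49 h, a factor of 0.822 (0.701 to 0.962). For Tcf7, at 20.9 h and 13.7 h, the factor of 0.658 (0.365 to 1.19) had an interval that includes 1. The factor for Tcf7 was 1.12 from the 8 h library alone and 2.08 between 4 and 8 h. Apc had a half-life of 2.18 h in WT cells and none in R255K cells, where its estimated rate was not above 0, and Ctnnb1 had none in either. Of the 6 ratios 3 were over 1.5 and 1 was lower, against 68.8% and 5.92% of the 5542 genes with a half-life in both genotypes, and the median ratio was 1.32 for the 6 genes and 1.98 for all. Among these 5542 genes, the gains in half-life of Axin1, Axin2 and Lef1 were thus smaller than that of the median gene, at the 37th, 35th and 46th percentile. By the ratio of remaining levels at 8 h over all 11869 tested genes, the same genes lay at percentiles 81.3, 87.9 and 59.4. With Gapdh as the scale their half-life ratios turned to 0.717, 0.901 and 0.640.

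Set side by side, the peaks and the decay of the genes differed in which genes stood out. Axin1 and Axin2, whose remaining levels were higher in R255K cells, kept all of their WT peaks, at lower fold enrichment. Apc, with the widest gap in decay, lost 4 of 6 peaks but kept the strongest. Sp5, whose fold enrichment had a ratio of 0.441, had overlapping intervals for its remaining level, and Ctnnb1, whose WT peak was lost, did not decline. With 8 genes chosen by name no relation between the measures was tested.

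The rest of the pathway was read from 6 lists of genes, all of whose genes were in the count tables. None of the 19 Wnt ligand genes passed the filter of a mean of 1 FPKM, although 12 WT peaks lay on exons of 10 of them, of which 6 were kept. Of the 18 receptor genes 13 were tested, with 4 higher and 2 lower in R255K cells at 0 h, beside 20.6% and 19.3% of all tested genes, and 11 higher and 0 lower at 8 h, beside 46.7% and 10.2%. Fzd7, the receptor gene with the highest mean level at 0 h over the genotypes, was counted 2314, 200 and 114 times in the WT libraries. In the R255K libraries it was counted 2038, 388 and 244 times, a ratio of 0.981 at 0 h and 1.57 at 8 h (1.25 to 1.98). In WT cells alone Fzd5 was above Fzd7 at 0 h, at 36.8 against 29.3 FPKM. Fzd5 was lower at 0 h with a ratio of 0.412 (0.389 to 0.436), and at 8 h its ratio was 1.05 (0.892 to 1.23). Fzd2, on chromosome 11, was higher at all 3 times, by 4.52 at 0 h (3.96 to 5.17), 14.3 at 4 h and 24.8 times at 8 h (15.4 to 42.9), from 275, 40 and 17 counts in the WT libraries and 1115, 712 and 575 in the R255K libraries. Both WT peaks of Fzd2 were lost, although 1 R255K peak lay elsewhere on its exons. Of the 30 WT peaks on receptor genes 13 were kept, beside 52.1% of all exonic WT peaks. Relative to the median of chromosome 11 the ratios of Fzd2 were 3.03, 8.74 and 13.0.

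Of 21 genes for proteins that act on ligands or receptors outside the cell, 10 were tested, and 6 were higher and 2 lower at 0 h (20.6% and 19.3% of all tested genes), and 7 higher and 2 lower at 8 h (46.7% and 10.2%). The secreted Frizzled-related proteins, which bind Wnt ligands, went in opposite directions. Sfrp1 was counted 3310, 3622 and 3692 times in the WT libraries and 1178, 1622 and 1853 times in the R255K libraries, ratios of 0.397, 0.361 and 0.368 at 0, 4 and 8 h. Sfrp2 was counted 206, 166 and 108 times in the WT libraries and 655, 751 and 725 times in the R255K libraries, ratios of 3.54, 3.64 and 4.93. Sfrp1 had 2 WT peaks, both lost, and Sfrp2 had none.

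Of 20 genes of signal transducers and the degradation machinery, 19 were tested, with 2 higher and 6 lower at 0 h, against 20.6% and 19.3% of all tested genes, and 10 higher and 1 lower at 8 h, where 46.7% and 10.2% of all were, so that the count of higher genes at 8 h was near the background. Those with the highest mean level at 0 h over the genotypes were casein kinase 1 genes. Csnk1g2 had ratios of 1.35 at 0 h and 1.35 at 8 h, and Csnk1d, on chromosome 11, had 1.59 and 3.97. Fbxw11, also on chromosome 11, a receptor subunit of the ubiquitin ligase for β-catenin, had the highest ratio at 0 h, 1.73 (1.63 to 1.83), and 7.32 at 8 h (6.07 to 8.89). Relative to the median of chromosome 11, the ratios at 0 h were 1.16 for Fbxw11 and 1.07 for Csnk1d, both under the limit, and those at 8 h were 3.83 and 2.08. Amer1, a partner of Apc, had the lowest ratio at 0 h, 0.24 (0.201 to 0.286), from 714 WT and 154 R255K counts.

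The nuclear cofactors had 13 of 16 genes tested, 2 higher and 2 lower at 0 h (20.6% and 19.3% of all tested genes) and 10 higher and 0 lower at 8 h (46.7% and 10.2%). Of their 30 WT peaks 19 were kept, against 52.1% of all exonic WT peaks. Smarca4, a chromatin remodeler, had ratios of 0.839, 0.697 and 0.770, and the corepressor Ctbp2 had 0.947, 1.55 and 2.15. Ctnnbip1, an inhibitor of β-catenin binding to TCF, was higher at 0 h by 1.71 times (1.5 to 1.96). Ep300, a histone acetyltransferase, was lower at 0 h at 0.634 (0.602 to 0.668) and higher at 8 h at 3.08 (2.64 to 3.61), the same order of signs as Apc, and all 4 of its WT peaks were kept.

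Of 20 target genes of the pathway, 11 were tested, with 4 higher and 4 lower at 0 h and 8 higher and 1 lower at 8 h, where the shares of all tested genes were 20.6% and 19.3%, and 46.7% and 10.2%. Klf2, a pluripotency factor, had nearly equal levels at 0 h, 226 FPKM in WT and 222 FPKM in R255K cells, and was then counted 112 and 60 times at 4 and 8 h in WT, 773 and 348 times in R255K cells, with 2 of 2 WT peaks kept. Tdgf1, a Nodal co-receptor, was lower at 0 h with a ratio of 0.660 (0.639 to 0.681) and stood at 0.873 at 8 h. Nkd2, an inhibitor of Dishevelled, was higher at 0 h by 5.29 times (3.75 to 7.64), from 40 and 190 counts, and passed the filter only through R255K cells. Tfcp2l1, a transcription factor of naive pluripotency, was lower at all 3 times, at 0.282 (0.270 to 0.295), 0.342 and 0.559, and its WT peak was lost. In the lists of receptors, of modulators outside the cell and of targets 1 tested gene each was under 1 FPKM in WT cells at 0 h.

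The genes with the pattern closest to Ctnnb1 and to Axin2 over the 6 libraries were sought by the Euclidean distance of log2(CPM + 1), where CPM is the count scaled to the summed counts of the library, centered on each gene, among 8695 genes with a mean CPM of at least 10. For Ctnnb1 they were Rpl31-ps8, at a distance of 0.0763, Prim2 at 0.0902 and Cops5 at 0.0955. Rpl31-ps8 is a pseudogene that shares sequence with Rpl31, so its counts are uncertain. For Axin2 they were Zdhhc5 at 0.227, Spata2 at 0.270 and 1700017B05Rik at 0.293. Zdhhc5 was counted 2027, 144 and 68 times in the WT libraries and 2127, 517 and 335 times in the R255K libraries, the fast decay and the higher level after 4 and 8 h that were also seen for Axin2.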

How the data were processed

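Per the submitters' notes and methods, rRNA reads were taken out with Bowtie2 2.2.6, and the other reads were mapped by the authors to mm10 (HISAT2) and filtered (Picard 2.16.0, SAMtools 0.1.09). Peaks of IP over input were called by the authors with MACS2, and the way in which both IP libraries of a genotype entered 1 list is not given in the sources used here. The deposited fold enrichment is a ratio over the local background at the summit, and the deposited −log10 q is that of MACS2; the read depth behind the lists is unknown. The authors deposited whole-number counts per gene, without normalization; the counting tool, its annotation and its use of strand are not given in the sources used here.

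Counts were scaled to the summed counts of each library (CPM) and to exon length (FPKM); no spike-in allows absolute levels, and 0 columns of per-sample values were left out. Ratios carry no pseudocount, and a count under 3 was set to 3 for calls. Ratios of 2 counts have exact conditional binomial intervals, and remaining ratios and half-lives have intervals by the delta method. A half-life is ln 2 over a decay rate that averages the rates from 0 to 4 h and from 0 to 8 h, each the natural log of the level at 0 h over the later level, divided by the hours. Shares of peaks are over peaks that overlap an exon. Peaks were compared with bedtools 2.31.1, at an overlap of at least 1 bp, and placed on exons of the count tables; coding sequence and UTRs are from GENCODE vM21 on the same build. Motifs were sought on the strand of the gene in RefSeq's GRCm38 (mm10) genome sequence with pysam 0.24.0, for the background only where the summit lay in an exon of genes of 1 strand; GAAC was added to the letters listed beforehand. Scripts ran in Python 3.11.15 with scipy 1.17.1, numpy 2.4.6, pandas 2.3.3, matplotlib 3.10.9 and statsmodels 0.14.6 (GC trend, lowess span 0.3), and edgeR 4.0.16 in R 4.3.3 gave TMM factors only. The half-life and ratio steps were tested on simulated data.

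The members, gene lists and alternatives were chosen with earlier results of these data known. From each list the text names the 2 genes with the highest mean FPKM at 0 h and the gene furthest from a ratio of 1 in each direction. With 1 library per genotype and time, no fit with replicates was made.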

Additional observations from a re-analysis of the deposited data

Results flagged for a closer look

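The level of Apc moved in opposite directions in the genotypes. From 0 to 4 h of actinomycin D it went to 0.334 of its 0 h level in WT cells and to 1.59 in R255K cells, and the ratio of R255K to WT went from 0.399 at 0 h to 1.90 at 4 h and 7.03 at 8 h. These differences were not tested, because each rests on 1 library per genotype and time, and both comparisons begin at the 0 h libraries. Between 4 and 8 h, without the 0 h libraries, the level fell in both genotypes, to 0.166 of that at 4 h in WT and to 0.612 in R255K cells. The 14.4% of tested genes that moved in the same opposite ways from 0 to 4 h give the background of this pattern.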

How the results depend on the processing

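No paired analysis was possible because the peak lists combine the replicates of a genotype and the count tables hold 1 library per genotype and time, so no replicate could be left out either. Of 269 values of single genes under the alternatives, 146 stayed within their counting interval and 110 left it. The other 13 were past 1.5-fold in the results above and changed direction. Values within 1.5-fold that crossed 1 are not among the 13. With Gapdh, for example, the ratio at 0 h went from 0.931 to 2.51 for Ctnnb1 and from 0.738 to 1.99 for Tcf7l1. Scaling to Gapdh, whose counts ranged from 242 to 2357 over the libraries and which moved the median log2 ratio of all genes to 1.49, −1.17 and 1.26 at 0, 4 and 8 h, gave 10 of the 13. These were Apc at 0 h (1.08), Apc (0.725) and Tcf7 (0.887) at 4 h, the remaining level at 4 h of Axin1 (0.275), Axin2 (0.401), Apc (0.674) and Lef1 (0.357), and the half-life ratios of Axin1 (0.717), Axin2 (0.901) and Lef1 (0.640). The half-life ratio of Tcf7 was 1.52 with ribosomal protein genes as the scale, 1.12 from the 8 h library alone and 2.08 between 4 and 8 h. With Gapdh, 7 genes were higher and 0 lower at 0 h, 2 and 2 at 4 h, 0 and 7 for the remaining level at 4 h, 3 and 2 for that at 8 h, and 1 and 3 for the half-life. With ribosomal protein genes or the GC correction 3 genes were higher and 2 lower at 0 h, and 0 had a shorter half-life. The remaining level at 8 h was then higher for 6 with ribosomal protein genes and for 4 with the GC correction. With TMM or relative to the same chromosome 2 genes were lower at 8 h, and with TMM the remaining level at 8 h was higher for 3 and lower for 1. The count of shorter half-lives was 2 from the 4 h library alone and 0 from the 8 h library alone. Between 4 and 8 h 6 of 6 half-lives were called longer and 0 shorter, Apc included, while Lef1 had none in WT cells. Axin2 went to 0.426 of its 4 h level in WT (0.191 to 0.883) and to 0.608 in R255K cells. Sp5 went to 0.241 in WT (0.0253 to 1.16), from 9 and 2 counts, and to 0.547 in R255K cells. Both WT intervals include the R255K value, so counting error limits the calls of Axin2 and Sp5. For Axin1, Apc, Tcf7 and Tcf7l1 the intervals of the genotypes did not overlap. Over all 6393 genes with a value between 4 and 8 h, 72.7% were longer and 7.62% shorter. With peaks under 4-fold enrichment left out, 8 WT peaks were left and 4 of them were kept. With the 50 bp window 9 of 15 WT peaks held GGAC, beside 61.8% of 13005. The cause of these differences was not tested. Ribosomal protein genes as the scale moved the median log2 ratio of all genes to −0.09, 0.42 and 0.85 at 0, 4 and 8 h. Among all genes, the share of calls that were higher went at 4 h from 78% to 60.6% with TMM factors, 59.8% relative to the same chromosome and 7.7% with Gapdh, and at 8 h from 82.1% to 56.3% with TMM factors and to 53.7% relative to the same chromosome, to 93.4% with ribosomal protein genes and to 97.7% with Gapdh. With 1 added to each FPKM the counts of genes called stayed as they were, but the level ratios at 8 h came to 1.5 for Lef1, 1.55 for Sp5, 1.51 for Axin2 and 2.69 for Apc, so low WT levels limit these ratios as well as the decay values.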
